A study of Drosophila melanogaster with 32 samples.

Results

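Pvr, the only PDGF/VEGF-type receptor tyrosine kinase of Drosophila melanogaster, and its ligands Pvf1, Pvf2 and Pvf3 were followed through the passages of 3 cell lines. The members were taken by name or gene ID from the list of genes in each count file: Pvr (FBgn0032006), Pvf1 (FBgn0030964), Pvf2 (listed under the locus tag CG13780, FBgn0031888) and Pvf3 (FBgn0085407), that is 4 of 15251 genes. All 4 passed the filter on low values and were among the 9177 genes tested. Total RNA was sequenced from the lines R1, R4 and R5 in 32 libraries, each of 1 passage of 1 line, a passage being a transfer of the culture into fresh medium. Early passages were 2, 3 and 4 in every line. Intermediate passages were 6, 7 and 8 in R5, 5, 7, 8, 10 and 11 in R1, and 5, 6, 7, 9 and 11 in R4. Late passages were 16, 17 and 19 in every line. All cultures shared Schneider's medium with serum and antibiotics, and no treatment or engineered allele is named for any of them. The labels give neither the origin nor the genotype of R1, R4 and R5. Successive passages of a line were samples of 1 culture, so a comparison of stages had 3 lines as its replicates, and p-values within or between lines measure only the spread between passages.

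Receptors of the PDGF/VEGF family sit in the cell membrane, pair up when a secreted ligand binds, and phosphorylate each other's tyrosines. Adaptor proteins then carry the signal to Ras and ERK, to Rac and the actin skeleton, and in some tissues to JNK. In flies, Pvr is best known in hemocytes, the blood cells, where it serves survival and migration, and in the border cells of the ovary, which Pvf1 helps to guide. Pvf2 and Pvf3 are expressed along routes that embryonic hemocytes follow.

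Levels are given in CPM, a read count scaled to library size, here after the trimmed mean of M values (TMM) adjustment. Library totals ran from 7760446 to 18213927 counts, and no pair of libraries held identical values. Pvr was read 542 to 8790 times per library, Pvf2 878 to 2724 times and Pvf3 978 to 6572 times. Pvf1 was read 16 to 193 times, so its values carry the largest counting error. Each library held RNA of a whole culture, so fewer cells of a type and less RNA per cell cannot be told apart. Where ranges of libraries are compared below, the share of all genes that separate in the same way was not counted. Pvf2 and Pvf3 are neighbours on chromosome arm 2L in the BDGP6.54 annotation, with no other coding gene between them. Pvr lies on the same arm and Pvf1 on X. Of the Pvf2 exons, 11 bases (0.52%) overlap an exon of Ugt307A1 on the opposite strand. No label states whether counting used strand, so reads over those bases could belong to either gene. No exon of another annotated gene overlapped those of Pvr, Pvf1 or Pvf3.

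Levels per exon length placed each member among other genes of its kind. Over the 32 libraries Pvr averaged 38.6 CPM per kb, rank 2 of 19 receptor tyrosine kinases. The fibroblast growth factor receptor htl stood above it at 66.4 CPM per kb, and Eph stood next below at 37.3. By stage Pvr took rank 2 at early passages (50.0 CPM per kb), rank 4 at intermediate ones (30.7, below htl at 43.0, otk at 39.4 and Eph at 37.1) and rank 2 at late ones (38.5). Among 11 ligands of such receptors, the Egfr ligand spi led at 396 CPM per kb. Pvf2 followed at 74.8 and Pvf3 at 40.3 CPM per kb, ranks 2 and 3. Pvf2 kept rank 2 at each stage, while Pvf3 took rank 4 at early passages (28.4 CPM per kb, below bnl at 42.1) and rank 3 at intermediate (53.7) and late ones (32.3). Pvf1 was far lower, at 1.78 CPM per kb and rank 9. By CPM without the division by length, Pvf3 stood above Pvf2 and Pvr took rank 3, and the exons of Pvf3 span 6.237 kb and those of Pvf2 span 2.102 kb in BDGP6.54.

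**Figure D1:**
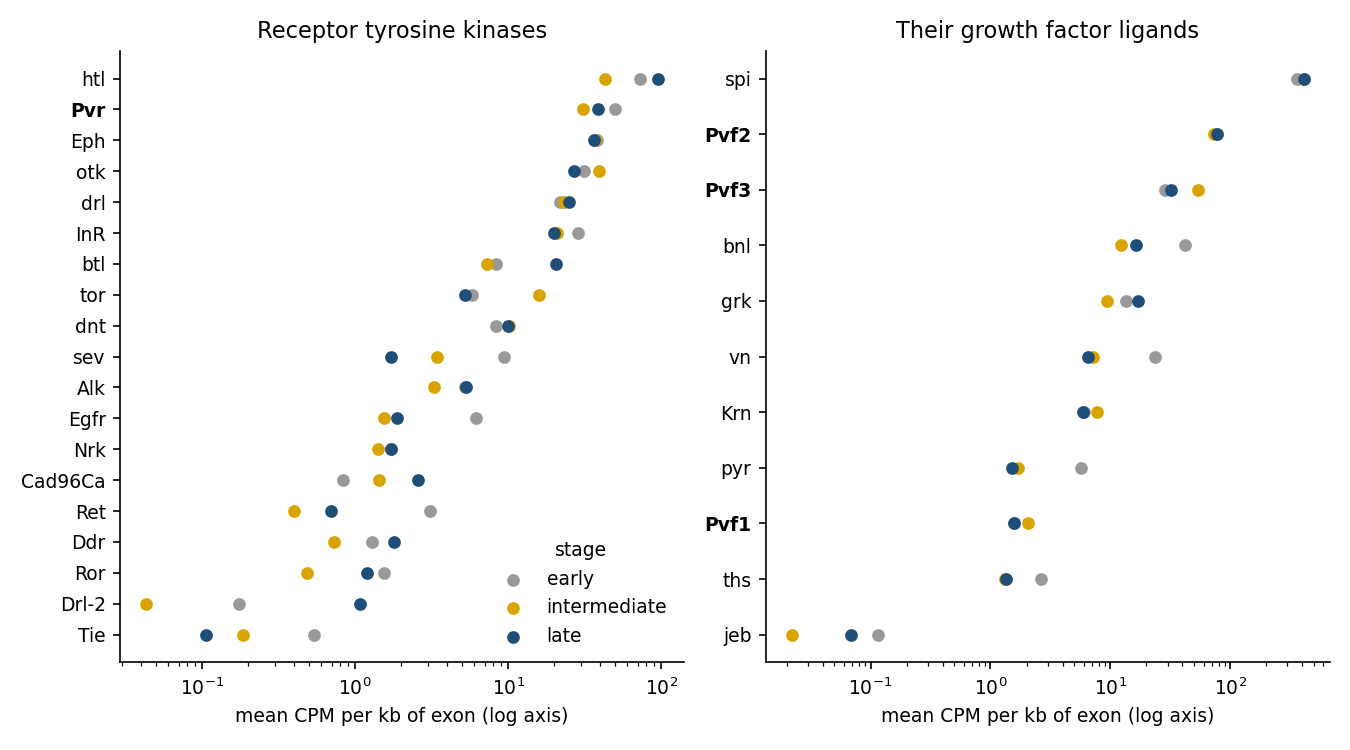
Mean CPM per kb of exon (log axis) at early (grey), intermediate (yellow) and late (blue) passages for 19 receptor tyrosine kinases and 11 ligands, 1 row per gene, ordered by the mean over 32 libraries, with the 4 members in bold. Pvr stands at 50.0, 30.7 and 38.5 CPM per kb at the 3 stages and Pvf3 at 28.4, 53.7 and 32.3.

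Among the 3 ligands, the sum of their levels per kb was mostly Pvf2 and Pvf3. Pvf2 made up 39.9 to 81.8% of it over the 32 libraries (median 66.2%), Pvf3 14.8 to 56.4% (median 32.2%) and Pvf1 0.461 to 4.16% (median 1.60%). At passage 2, Pvf2 stood at 4.79 times Pvf3 per kb in R5, 4.77 times in R1 and 5.50 times in R4. The order was turned round, with Pvf3 above Pvf2, in 3 libraries, those of R4 at passages 5, 9 and 11. The Pvf3 share averaged 24.8% at early, 41.5% at intermediate and 30.1% at late passages.

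Pvr was highest at the first passage sampled and lowest at or shortly after passage 4 in each line. In R5 it stood at 379, 320.0 and 217 CPM at passages 2, 3 and 4, at 66.6, 88.1 and 66.8 CPM at intermediate and at 161, 137 and 205 CPM at late passages. In R1 the early libraries held 626, 400.4 and 287 CPM, the intermediate ones 64.8, 389.8, 204, 367 and 430.4 CPM and the late ones 309, 306 and 227 CPM. In R4 they held 389, 289 and 84.8 CPM at early, 86.5, 159.9, 191, 249.9 and 291 CPM at intermediate, 276 CPM at passage 12 and 271, 302 and 386 CPM at late passages. Passage 2 held the highest value of R5, of R1 and of R4. The lowest value of a line was that of passage 6 in R5, of passage 5 in R1 and of passage 4 in R4, and the highest was 5.70, 9.67 and 4.58 times the lowest in R5, R1 and R4. The early, intermediate and late ranges of R5 did not overlap with each other. In R1 and R4 every pair of stages overlapped.

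**Figure D2:**
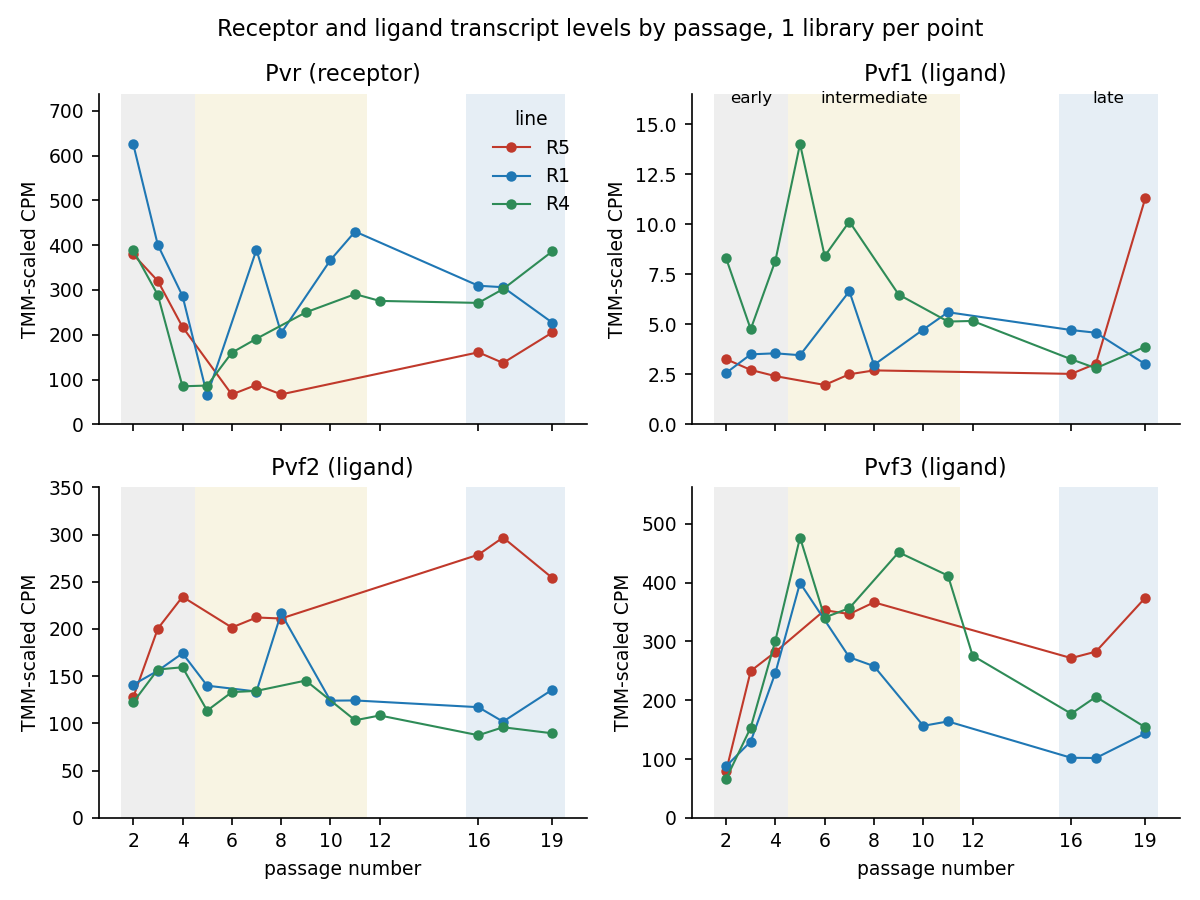
TMM-scaled CPM of Pvr, Pvf1, Pvf2 and Pvf3 against passage number, 1 library per point, in R5 (red), R1 (blue) and R4 (green), with the early, intermediate and late stages shaded. Pvr starts at 379 to 626 CPM at passage 2 and Pvf3 at 66.0 to 87.7 CPM, and Pvf2 of R5 runs above the other lines at late passages.

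Over the 3 lines Pvr averaged 340.3 ± 96.8 CPM at early, 181 ± 102 CPM at intermediate and 257 ± 78.3 CPM at late passages (mean ± SD of 3 line means). Intermediate against early passages gave a log2 change of -1.07 ± 0.34 (SE, 95% interval -1.88 to -0.25, adjusted p = 0.0914) by edgeR's quasi-likelihood test with Benjamini-Hochberg adjustment, lower in 3 of 3 lines but short of the 0.05 threshold. Over 43 refits with other settings or fewer libraries the adjusted p ran from 0.00528 to 0.291, and 2 of them passed the threshold. Late against early passages gave a log2 change of -0.45 ± 0.33 (SE, 95% interval -1.26 to 0.35, adjusted p = 0.393), and late against intermediate a log2 change of 0.62 ± 0.33 (SE, 95% interval -0.19 to 1.42, adjusted p = 0.552). Both intervals hold changes in either direction. Within lines, Pvr fell in R5 between early and intermediate passages, a log2 change of -2.05 ± 0.52 (SE, 95% interval -3.13 to -0.97, adjusted p = 0.0110), a comparison in which 14.8% of all genes passed the threshold. That call was lost in 2 of 39 refits, with adjusted p up to 0.0556, and without R5 passage 8 the adjusted p was 0.0520. The same comparison gave a log2 change of -0.59 ± 0.44 (SE, 95% interval -1.50 to 0.32, adjusted p = 0.312) in R1, where 35.2% of all genes and none of the members were called, and a log2 change of -0.38 ± 0.44 (SE, 95% interval -1.29 to 0.53, adjusted p = 0.536) in R4. Over the same R5 libraries the 11 hemocyte markers of the list described below summed to 105.1, 240.3 and 152.9 CPM at intermediate, against 792.5, 337.7 and 232.9 CPM at early passages. These ranges overlapped. The fat body, glia and follicle sums, also described below, lay lower at all intermediate than at all early passages of R5. For glia they were 100.2, 61.22 and 81.74 CPM against 247.5, 222.2 and 198.8 CPM. The muscle precursor sum lay higher, and the neuron ranges overlapped. The part of any of these in the Pvr change was not tested. Whether the lines differed in the Pvr change was tested jointly, and the adjusted p was 0.191.

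Pvf3 ran the opposite way at first. In R5 it stood at 79.0, 249.8 and 282 CPM at passages 2, 3 and 4, at 353, 347 and 367 CPM at intermediate and at 272, 283 and 374 CPM at late passages. In R1 the early libraries held 87.7, 129.8 and 247 CPM, the intermediate ones 399.6, 273, 258, 157 and 164 CPM and the late ones 102, 102 and 144 CPM. In R4 they held 66.0, 154 and 301 CPM at early, 477, 341, 357, 452 and 412 CPM at intermediate, 276 CPM at passage 12 and 177, 206 and 154 CPM at late passages. Passage 2 was the lowest library in every line, and values climbed over the first 3 passages in each. Intermediate libraries lay above all early ones in R5 and R4, whereas in R1 passages 10 and 11 lay inside the early range. Late libraries lay below all intermediate ones in R1 and R4. In R5 the late range, with 374 CPM at passage 19, overlapped the intermediate one.

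Pvf3 averaged 162 ± 18.5 CPM at early, 346 ± 74.5 CPM at intermediate and 203 ± 98.3 CPM at late passages (mean ± SD of 3 line means). It rose at intermediate against early passages by a log2 change of 1.08 ± 0.23 (SE, 95% interval 0.53 to 1.63, adjusted p = 0.0400), higher in 3 of 3 lines, by edgeR's quasi-likelihood test with Benjamini-Hochberg adjustment. It was the only 1 of the 4 members called in that comparison, against 9.69% of all genes (3.67% higher and 6.02% lower). The call rested on single libraries: it was lost without R5 passage 2 or 16, R1 passage 2, 3, 5 or 19, or R4 passage 2, with the log2 change at 0.91 to 1.28 over 31 refits that each left out 1 library. Without passage 2 of every line the log2 change was 0.67, adjusted p = 0.104, within 0.000110 to 0.326 over 43 refits. Within R4 the rise was also called, a log2 change of 1.23 ± 0.40 (SE, 95% interval 0.40 to 2.06, adjusted p = 0.0188), against 36.7% of all genes, and was lost without R4 passage 2 or 3. In R5 it was a log2 change of 0.81 ± 0.43 (SE, adjusted p = 0.219) and in R1 a log2 change of 0.70 ± 0.40 (SE, adjusted p = 0.176), neither past the threshold. The joint test of whether the lines differed gave an adjusted p of 0.761.

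From intermediate to late passages Pvf3 fell in R1, a log2 change of -1.11 ± 0.40 (SE, 95% interval -1.94 to -0.28, adjusted p = 0.0487), where 22.3% of all genes were called. That call held in only 8 of 31 refits without 1 library. In R4 the difference was a log2 change of -1.19 ± 0.40 (SE, 95% interval -2.02 to -0.36, adjusted p = 0.0534), and in R5, where 3.72% of all genes and none of the members were called, a log2 change of -0.20 ± 0.43 (SE, 95% interval -1.09 to 0.69, adjusted p = 0.849), neither past the threshold. Over the 3 lines it was a log2 change of -0.84 ± 0.23 (SE, 95% interval -1.40 to -0.29, adjusted p = 0.325), in a comparison where 0.0763% of all genes and none of the 4 members were called. At unadjusted p under 0.05, 1 of the 4 members, Pvf3, passed there, against 11.0% of all genes. Late against early passages gave a log2 change of 0.24 ± 0.23 (SE, 95% interval -0.31 to 0.79, adjusted p = 0.511) for Pvf3, with 0.043 to 0.43 over the 31 refits without 1 library, lowest without R5 passage 2, and -0.07 without line R5. Again none of the 4 members was called, against 10.5% of all genes, and 0 of the 4 passed at unadjusted p under 0.05, against 30.9% of all genes.

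The opposed start of receptor and ligand was described by setting passage 4 against passage 2, a comparison added after the values had been seen. Its p-values are therefore descriptions and no independent test of the opposed start. The comparison used the 9 early libraries with the line as a block, and 8.76% of all genes were called. Pvr fell, with 217, 287 and 84.8 CPM at passage 4 of R5, R1 and R4, against 379, 626 and 389 CPM at passage 2 (log2 change -1.32 ± 0.26 SE, 95% interval -1.93 to -0.71, adjusted p = 0.0262). Pvf3 rose, with 282, 247 and 301 CPM at passage 4 against 79.0, 87.7 and 66.0 CPM at passage 2 (log2 change 1.85 ± 0.22 SE, 95% interval 1.34 to 2.35, adjusted p = 0.00598). Passages 4 and 2 did not overlap for Pvr or Pvf3, nor did they for Pvf2, given below. The share of all genes that separate so was not counted. The hemocyte marker sum was lower as well, at 232.9, 279.1 and 181.7 CPM at passage 4 against 792.5, 563.1 and 882.4 CPM at passage 2. The fat body and glia marker sums, described below, were also lower at passage 4 than at passage 2 in every line. The follicle, muscle precursor and neuron sums were not lower in every line. Pvf2 rose less, with 234, 174 and 159 CPM at passage 4 against 128, 141 and 122 CPM at passage 2 (log2 change 0.53 ± 0.12 SE, 95% interval 0.25 to 0.81, adjusted p = 0.0374). Pvf1 did not pass the threshold (log2 change 0.0078 ± 0.29 SE, 95% interval -0.67 to 0.69, adjusted p = 0.991). All adjusted p-values are from edgeR's quasi-likelihood test with Benjamini-Hochberg adjustment. The Pvf3 call held in all 6 refits (adjusted p 0.00387 to 0.0420). The Pvr call was lost without R5, without R1 or without passage 3 (adjusted p 0.0161 to 0.133 over 6 refits), and the Pvf2 call without any 1 line or without passage 3 (0.0381 to 0.154).

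Across libraries Pvr and Pvf3 were opposed in all lines. Pearson's r of their log2 levels was -0.68 over the 32 libraries (Spearman's rho -0.74), and -0.68 in R5 (9 libraries), -0.69 in R1 (11) and -0.61 in R4 (12), where rho was -0.70, -0.48 and -0.66. Successive libraries share a culture, so these values are descriptions. For Pvr and Pvf2 r was -0.42 over all libraries (rho -0.45), and for Pvr and Pvf1 0.02 (rho 0.12), with -0.67 in R4 (rho -0.59). The neighbours Pvf2 and Pvf3 had r = 0.36 (rho 0.31), with 0.73 in R5 (rho 0.32), 0.49 in R1 (rho 0.35) and 0.19 in R4 (rho 0.20). The summed ligand level per kb over that of Pvr was lowest in R1 at passage 2, at 0.872, and highest in R5 at passage 8, at 15.95. Its median was 2.33 at early, 4.75 at intermediate and 1.755 at late passages.

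**Figure D3:**
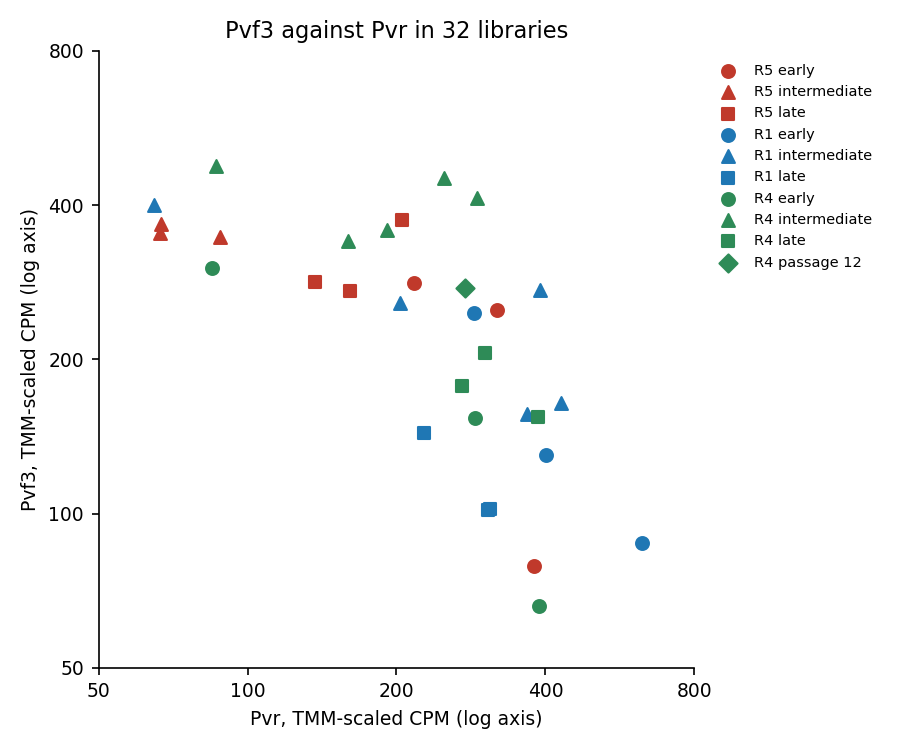
Pvf3 against Pvr in TMM-scaled CPM (both axes log), 1 point per library, coloured by line and shaped by stage, with R4 passage 12 as a diamond. Passage 2 libraries lie at high Pvr and low Pvf3, and r over the 32 libraries is -0.68.

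Pvf2 went apart between the lines with passage. In R5 it stood at 128, 200.4 and 234 CPM at passages 2, 3 and 4, at 202, 212 and 211 CPM at intermediate and at 279, 297 and 254 CPM at late passages. In R1 the early libraries held 141, 156 and 174 CPM, the intermediate ones 140.0, 134, 216, 124 and 124 CPM and the late ones 117, 102 and 136 CPM. In R4 they held 122, 157 and 159 CPM at early, 114, 133, 134, 145 and 103 CPM at intermediate, 108 CPM at passage 12 and 87.5, 95.9 and 89.5 CPM at late passages. Late libraries lay above all early ones in R5 and below all early ones in R1 and R4. The late ranges of the 3 lines did not overlap with each other, R5 being highest and R4 lowest. Each range is 3 passages of 1 culture, and the share of all genes with such ranges was not counted. At late passages 33.7, 34.1 and 14.7% of all genes were called for R5 against R1, R5 against R4 and R1 against R4. Over the 3 lines the stage means were level, 157 ± 16.2 CPM at early, 162 ± 43.5 CPM at intermediate and 163 ± 100.5 CPM at late passages (mean ± SD of 3 line means), and the SD at late passages was the largest of the 3. Intermediate against early passages gave a log2 change of -0.0060 ± 0.24 (SE, 95% interval -0.58 to 0.57, adjusted p = 0.991) and late against early a log2 change of -0.099 ± 0.24 (SE, 95% interval -0.68 to 0.48, adjusted p = 0.803), neither past the threshold by edgeR's quasi-likelihood test with Benjamini-Hochberg adjustment.

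Within lines, Pvf2 rose at late against early passages in R5, a log2 change of 0.56 ± 0.19 (SE, 95% interval 0.17 to 0.95, adjusted p = 0.0400), against 17.4% of all genes called. That call was lost without any 1 of R5 passages 2, 3, 16, 17 and 19. Pvf2 fell in R4, a log2 change of -0.69 ± 0.19 (SE, 95% interval -1.08 to -0.29, adjusted p = 0.00879), against 30.9% of all genes, and this call held in all 39 refits. In R1, where 27.7% of all genes and none of the members were called, the difference was a log2 change of -0.41 ± 0.19 (SE, 95% interval -0.80 to -0.017, adjusted p = 0.109). The difference between lines was itself past the threshold. The late against early change was higher in R5 than in R4 by 1.25 ± 0.27 (SE, 95% interval 0.69 to 1.80, adjusted p = 0.00493) on the log2 scale, with 8.90% of all genes called, and this held in all 39 refits. It was higher in R5 than in R1 by 0.97 ± 0.27 (SE, 95% interval 0.42 to 1.52, adjusted p = 0.0194), with 11.5% of all genes called. This call was lost in 3 of 39 refits, those without R5 passage 2 or R1 passage 17 among them. R1 against R4 gave 0.28 ± 0.27 (SE, 95% interval -0.28 to 0.83, adjusted p = 0.743), with 1.50% of all genes called. The joint test over the 3 lines gave an adjusted p of 0.00559 for Pvf2, against 12.8% of all genes. At intermediate against early passages no such difference was called for any member, against 8.65% of all genes, and the joint adjusted p of Pvf2 was 0.569.

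Pvf1, the ligand with a known part in border cell guidance, was low in every library. In R5 it stood at 3.25, 2.72 and 2.41 CPM at early, 1.97, 2.50 and 2.69 CPM at intermediate and 2.52, 3.03 and 11.3 CPM at late passages. In R1 the early libraries held 2.56, 3.49 and 3.55 CPM, the intermediate ones 3.45, 6.65, 2.97, 4.74 and 5.60 CPM and the late ones 4.71, 4.57 and 3.00 CPM. In R4 they held 8.30, 4.75 and 8.17 CPM at early, 14.0, 8.40, 10.1, 6.48 and 5.13 CPM at intermediate, 5.16 CPM at passage 12 and 3.25, 2.80 and 3.87 CPM at late passages. At early passages all R4 libraries lay above those of R5 and R1, at intermediate passages R4 and R1 overlapped above R5, and the late R4 libraries lay below all earlier ones of that line. One R5 library, passage 19, stood at 11.3 CPM from 102 reads, with an exact Poisson 95% interval of 9.20 to 13.7 CPM that covers counting error only. R5 passages 16 and 17 held 24 and 27 reads, with intervals of 1.61 to 3.75 and 1.995 to 4.40 CPM, so the passages differed by more than counting error.

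Over the 3 lines Pvf1 averaged 4.34 ± 2.32 CPM at early, 5.38 ± 3.36 CPM at intermediate and 4.37 ± 1.14 CPM at late passages (mean ± SD of 3 line means), with no comparison of stages past the threshold: a log2 change of 0.29 ± 0.47 (SE, 95% interval -0.86 to 1.44, adjusted p = 0.711) at intermediate against early and a log2 change of 0.22 ± 0.49 (SE, 95% interval -0.96 to 1.39, adjusted p = 0.789) at late against early. Within R4 it fell at late against intermediate passages, a log2 change of -1.42 ± 0.39 (SE, 95% interval -2.22 to -0.61, adjusted p = 0.0178) by edgeR's quasi-likelihood test with Benjamini-Hochberg adjustment, against 12.5% of all genes. This was lost without R4 passage 5, 16 or 17. Late against early in R4 gave a log2 change of -1.09 ± 0.42 (SE, 95% interval -1.96 to -0.23, adjusted p = 0.0505), just short of the threshold, and 12 of 39 refits passed it (adjusted p 0.0125 to 0.145). In R5 late against early gave a log2 change of 0.996 ± 0.43 (SE, 95% interval 0.12 to 1.87, adjusted p = 0.112), and without passage 19 the log2 change was -0.018. The late against early change was higher in R5 than in R4 by 2.09 ± 0.60 (SE, 95% interval 0.85 to 3.33, adjusted p = 0.0308). Without R5 passage 19 this value was 1.08, no longer called, and R5 passage 3 or 4 or R4 passage 2, 16 or 17 left out also ended the call. It was lost in 8 of 39 refits with other settings included. The joint test gave an adjusted p of 0.0471 for Pvf1, lost in 22 of 31 refits without 1 library. The joint adjusted p was 0.426 for Pvr and 0.480 for Pvf3.

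**Figure D4:**
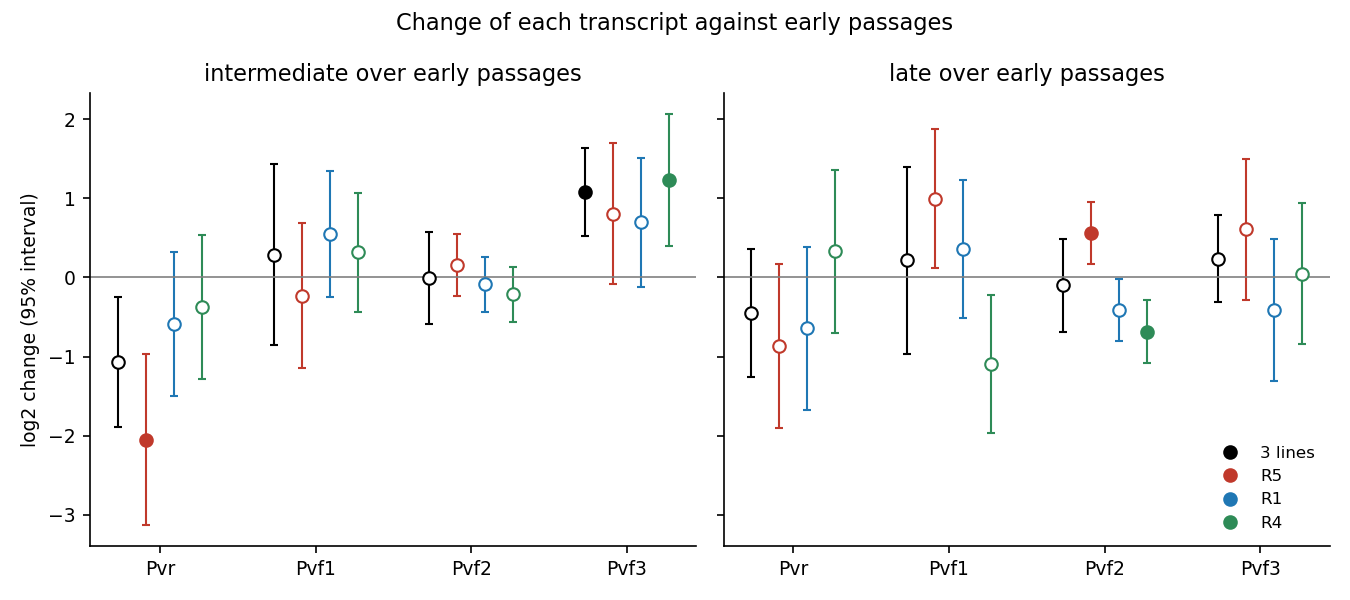
Log2 change at intermediate over early (left) and late over early passages (right) for each member, over the 3 lines and within R5, R1 and R4, with 95% intervals and filled points where the adjusted p was under 0.05. Pvf3 over the 3 lines stands at 1.08 on the left, and Pvf2 on the right stands at 0.56 in R5 and -0.69 in R4.

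Between lines, none of the 4 members was called at early passages, by edgeR's quasi-likelihood test with Benjamini-Hochberg adjustment, while 4.58, 0.806 and 1.48% of all genes were called for R5 against R1, R5 against R4 and R1 against R4. At an unadjusted p under 0.05, Pvf1 passed for R5 against R4 and for R1 against R4, with R4 highest, against 13.7 and 16.0% of all genes in these comparisons. At intermediate passages Pvr was lower in R5, with 73.8 ± 12.4 CPM there (n = 3) against 291 ± 153 CPM in R1 (n = 5), a log2 change of -1.98 ± 0.49 (SE, 95% interval -2.99 to -0.97, adjusted p = 0.00283). R4 held 196 ± 79.4 CPM (n = 5), and R5 was lower than R4 by a log2 change of -1.41 ± 0.48 (SE, 95% interval -2.39 to -0.42, adjusted p = 0.0229). That call was lost in 4 of 39 refits, those without R5 passage 6 or 8 or R4 passage 11 among them, with adjusted p up to 0.191. The ranges of R5 and of both other lines overlapped through R1 passage 5, at 64.8 CPM, and R4 passage 5, at 86.5 CPM. Pvf2 was higher in R5, with 208 ± 5.83 CPM against 148 ± 39.0 CPM in R1 and 126 ± 17.1 CPM in R4, a log2 change of 0.50 ± 0.17 (SE, 95% interval 0.15 to 0.84, adjusted p = 0.0240) against R1 and a log2 change of 0.73 ± 0.17 (SE, 95% interval 0.38 to 1.07, adjusted p = 0.00137) against R4. The call against R1 was lost without R5 passage 7 or 8 or R1 passage 7, 10 or 11. Pvf1 was lower in R5 than in R4, with 2.39 ± 0.377 against 8.83 ± 3.46 CPM, a log2 change of -1.88 ± 0.41 (SE, 95% interval -2.73 to -1.03, adjusted p = 0.000867). It was also lower in R1, at 4.68 ± 1.51 CPM, than in R4, a log2 change of -0.92 ± 0.32 (SE, 95% interval -1.58 to -0.25, adjusted p = 0.0395). That call was lost in 8 of 39 refits, those without R1 passage 5, 8 or 10 or R4 passage 5, 6 or 7 among them. At this stage 34.4, 37.7 and 24.7% of all genes were called for R5 against R1, R5 against R4 and R1 against R4.

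At late passages Pvf2 separated R5 from both other lines. It averaged 277 ± 21.5 CPM in R5, against 118 ± 17.0 CPM in R1 and 91.0 ± 4.40 CPM in R4 (SD, n = 3 each), a log2 change of 1.23 ± 0.19 (SE, 95% interval 0.83 to 1.62, adjusted p = 3.09e-05) against R1 and a log2 change of 1.60 ± 0.19 (SE, 95% interval 1.20 to 2.004, adjusted p = 1.46e-06) against R4. Both calls held in all 40 refits. Pvf3 averaged 309.6 ± 56.3 CPM in R5 and 116 ± 24.1 CPM in R1, a log2 change of 1.42 ± 0.44 (SE, 95% interval 0.51 to 2.33, adjusted p = 0.0151), a call lost without R5 passage 19 or R1 passage 16 or 17. R4 stood between them at 179 ± 25.9 CPM, with a log2 change of 0.79 ± 0.43 (SE, adjusted p = 0.164) for R5 against R4 and a log2 change of -0.63 ± 0.44 (SE, adjusted p = 0.366) for R1 against R4. The late ranges of Pvf3 did not overlap between any pair of lines, each range being 3 passages of 1 culture. The share of all genes with such ranges was not counted. Pvr was again lowest in R5, at 168 ± 34.6 CPM against 281 ± 46.7 CPM in R1 and 319.8 ± 59.6 CPM in R4, and its R5 range lay below both others, but neither difference was called (log2 change -0.74 ± 0.50 SE, adjusted p = 0.263, against R1 and -0.93 ± 0.51 SE, adjusted p = 0.158, against R4). Of all genes, 33.7, 34.1 and 14.7% were called for R5 against R1, R5 against R4 and R1 against R4. All adjusted p-values are from edgeR's quasi-likelihood test with Benjamini-Hochberg adjustment over 22 residual degrees of freedom.

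Ordered by mean level, the 9 combinations of line and stage formed gradients more than steps. Pvr ran from R1 early, at 438 ± 173 CPM, through R4 late, R5 early, R1 intermediate, R1 late, R4 early, R4 intermediate and R5 late to R5 intermediate. The ranges of 7 of the 8 neighbouring pairs overlapped, the exception being the last, R5 late and R5 intermediate. Pvf2 ran from R5 late down to R4 late, with gaps only between R5 late and R5 intermediate and between R1 late and R4 late. For Pvf3, from R4 intermediate at 408 ± 58.8 CPM to R1 late at 116 ± 24.1 CPM, and for Pvf1, from R4 intermediate at 8.83 ± 3.46 CPM to R5 intermediate at 2.39 ± 0.377 CPM, the ranges of all 8 neighbouring pairs overlapped.

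Genes of the routes downstream of Pvr were counted over the same passages. Of 18 adaptors and effectors that act next to the receptor, 17 were tested, 1 was called higher and 0 lower at late against early passages over the 3 lines (median log2 change 0.09, all genes 0.03), where 3.98% of all genes were called higher and 6.56% lower. That gene was Sos, the exchange factor that loads Ras, at 72.3 ± 1.98, 87.4 ± 7.03 and 88.8 ± 4.18 CPM at early, intermediate and late passages, a log2 change of 0.30 ± 0.060 (SE, adjusted p = 0.0351), a call lost in 10 of 43 refits, those without R5 passage 2 or 16 or R1 passage 3 among them. At intermediate against early passages 2 were called higher and 0 lower, namely Sos at 0.27 ± 0.060 (SE, adjusted p = 0.0444) and Cbl, a ubiquitin ligase that promotes breakdown of activated receptors, at 0.29 ± 0.065 (SE, adjusted p = 0.0451), with a median of 0.08 over the 17 genes and 0.03 over all genes. Both intermediate calls were sensitive to the settings, lost in 21 of 43 refits for Sos and 28 of 43 for Cbl, with adjusted p 0.00653 to 0.398 and 0.00719 to 0.406. Of 9 genes on the route from Ras to ERK, only sty, which encodes the receptor tyrosine kinase antagonist Sprouty, was called, higher in both comparisons, 0.61 ± 0.086 (SE, adjusted p = 0.0137) at late and 0.54 ± 0.086 (SE, adjusted p = 0.0229) at intermediate against early, with list medians of 0.14 and 0.22. The sty call was lost in 2 of 43 refits at late and 5 of 43 at intermediate against early, with adjusted p up to 0.190 and 0.240. Over all genes 10.5 and 9.69% were called in these comparisons. Of 7 JNK genes, 1 was higher in each: Jra, the fly Jun, at late passages, 0.31 ± 0.067 (SE, adjusted p = 0.0404), and the JNK kinase hep at intermediate ones, 0.44 ± 0.093 (SE, adjusted p = 0.0404), with list medians of 0.14 and 0.12. These calls were lost in 19 and 13 of 43 refits. All are from edgeR's quasi-likelihood test with Benjamini-Hochberg adjustment.

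The same lists were counted within single lines. Late against early passages, 17.4% of all genes were called in R5, 27.7% in R1 and 30.9% in R4, and intermediate against early passages 14.8, 35.2 and 36.7%. Of the 17 adaptors and effectors, 1 was higher and 0 lower in R5 at late against early passages, 4 higher and 1 lower in R1, and 2 higher and 1 lower in R4. At intermediate against early passages the counts were 1 and 0 in R5, and 4 and 2 in each of R1 and R4. Rac1, a GTPase of the actin skeleton, rose in R5 at late against early passages (log2 change 0.83 ± 0.077 SE, adjusted p = 7.1e-08), and mbc, an activator of Rac, rose in R4 (1.15 ± 0.22 SE, adjusted p = 0.000547). Rac2 was among the genes called in R1 and in R4 at late against early passages. Over the 3 lines it averaged 194 ± 32.1 CPM at early and 138 ± 31.5 CPM at late passages. Of the 9 genes from Ras to ERK, 0 were called in R5 at late against early passages, and 2 were higher and 1 lower in each of R1 and R4. In those lines pnt, an ETS factor downstream of ERK, rose by 0.57 ± 0.11 in R1 (SE, adjusted p = 0.000598) and 0.69 ± 0.11 in R4 (SE, adjusted p = 0.000149). There rl, the fly ERK, fell, with -0.47 ± 0.10 in R1 (SE, adjusted p = 0.00159) and -0.30 ± 0.10 in R4 (SE, adjusted p = 0.0309). The R4 call was lost in 6 of 39 refits, those without R4 passage 2, 3, 17 or 19 among them. At intermediate against early passages 1 was higher and 0 lower in R5, 2 higher and 1 lower in R1, and 4 higher and 0 lower in R4. Of the 7 JNK genes, 2 were higher and 1 lower in R5 at late against early passages, 1 and 0 in R1, and 1 and 1 in R4. At intermediate against early passages they were 1 and 1 in R5, 4 and 1 in R1, and 2 and 1 in R4. The kinase msn rose in R5 at late against early passages, by 0.78 ± 0.12 (SE, adjusted p = 7.7e-05). The gene called lower in R5 was puc, at -0.38 ± 0.10 (SE, adjusted p = 0.0130) late and -0.41 ± 0.10 (SE, adjusted p = 0.0106) intermediate against early. Rac1, Rac2, mbc, pnt, rl, msn and puc were chosen after their values were seen. All calls are from edgeR's quasi-likelihood test with Benjamini-Hochberg adjustment.

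Other receptor tyrosine kinases and their ligands were counted in the same way. Of 18 other receptors 1 was higher and 5 lower at late against early passages (median -0.06, 3.98% of all genes higher and 6.56% lower), and 1 higher and 3 lower at intermediate against early passages (median -0.47, 3.67% of all genes higher and 6.02% lower). Ret, a receptor of the GDNF receptor class, had 15.7 ± 5.34, 2.01 ± 0.605 and 3.44 ± 0.769 CPM at early, intermediate and late passages, a log2 change of -2.17 ± 0.32 (SE, adjusted p = 0.0157) at late against early. Tie, a receptor of the Tie class, had 2.86 ± 0.439, 0.994 ± 0.162 and 0.550 ± 0.189 CPM, -2.42 ± 0.34 (SE, adjusted p = 0.0132). InR, the insulin receptor, had 325 ± 24.7, 246 ± 22.7 and 227 ± 48.3 CPM, -0.53 ± 0.11 (SE, adjusted p = 0.0359). Its call was lost in 5 of 43 refits, that without R1 passage 5 among them, with adjusted p up to 0.228. The photoreceptor-fate receptor sev had 77.5 ± 41.2, 27.6 ± 8.97 and 14.2 ± 8.00 CPM, -2.43 ± 0.57 (SE, adjusted p = 0.0485), a call lost in 18 of 43 refits. Egfr was also lower, -1.71 ± 0.14 (SE, adjusted p = 0.00466). The breathless receptor btl, which binds bnl, was the 1 called higher, with 32.7 ± 8.77, 31.3 ± 8.77 and 81.9 ± 30.2 CPM, 1.30 ± 0.31 (SE, adjusted p = 0.0492), a call lost in 27 of 43 refits. At intermediate passages tor was the 1 called higher, 1.60 ± 0.25 (SE, adjusted p = 0.0217). Of 8 ligands of these receptors, 0 were higher and 2 lower in each comparison (medians -1.05 and -1.42): the fibroblast growth factor pyr in both, -1.77 ± 0.38 (SE, adjusted p = 0.0395) at late against early, with bnl at intermediate, -1.76 ± 0.34 (SE, adjusted p = 0.0330), and vn at late passages, -1.96 ± 0.41 (SE, adjusted p = 0.0379). The late pyr call was lost in 7 of 43 refits, those without R5 passage 16 or R4 passage 2 or 3 among them, with adjusted p up to 0.218. Without line R1, none of these receptors and ligands was called in either comparison. Pvf3 was called higher in the comparison in which bnl and pyr were called lower, by edgeR's quasi-likelihood test with Benjamini-Hochberg adjustment. Its call there was lost in 11 of 43 refits. Of the ligands not called there, spi and Krn had positive changes, 0.25 and 0.37, and grk, jeb, ths and vn negative ones. Whether Pvf3 differed from the other ligands in its change was not tested.

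Markers of the cell types that the cultures could hold were summed beside these values. The 11 markers of hemocytes, the cells in which Pvr is best known, summed to 182 to 882 CPM at early, 105 to 1415 CPM at intermediate and 273 to 849 CPM at late passages. Of the 11, 0 were called at late against early passages, where 10.5% of all genes were, and 1, the phagocytosis receptor eater, was lower at intermediate against early passages, where 9.69% of all genes were called, a log2 change of -1.95 ± 0.34 (SE, adjusted p = 0.0279) by edgeR's quasi-likelihood test with Benjamini-Hochberg adjustment. Within lines, late against early passages, 0 were higher and 3 lower in R5 and in R1, and 3 were higher and 0 lower in R4. Of all genes, 17.4% were called in R5, 27.7% in R1 and 30.9% in R4 there. At intermediate against early passages the counts were 0 and 1 in R5, 0 and 3 in R1, and 2 and 1 in R4. The shares of all genes were 14.8, 35.2 and 36.7% in the same order. Of the 11 markers, srp (11.9 to 231 CPM) and Hml (8.60 to 129 CPM) were read in every library, while gcm was at 0 in 1. At passage 3 the sum lay between its values at passages 2 and 4 in every line, as Pvr did. The fat body sum, described below, did so too. At passages 2, 3 and 4 it was 317.9, 74.22 and 38.76 CPM in R5 and 77.27, 34.88 and 28.27 CPM in R1. In R4 it was 446.5, 63.66 and 18.65 CPM. In R1 passage 5, the lowest Pvr library, the hemocyte sum was 138.8 CPM, against 512.2 CPM at passage 7. Over 32 libraries the r of log2 Pvr with the log2 hemocyte sum was 0.70, against 0.05 to 0.39 for the other 5 lists. With Pvf2 it was -0.61. In R4 the hemocyte sum was 882.4, 387.3 and 181.7 CPM at early and 239.7, 630.7, 949.3, 1415 and 931.8 CPM at intermediate passages. The 2 markers called higher there were PPO2 (log2 change 2.64 ± 0.93 SE, adjusted p = 0.0279) and Hml (1.55 ± 0.54 SE, adjusted p = 0.0263). The 1 called lower was eater (-2.41 ± 0.71 SE, adjusted p = 0.0102). Mean Pvr in R4 was 254 CPM at early and 196 CPM at intermediate passages. Among the 11 markers PPO2 ran from 0.332 to 798 CPM, and crq (152.4 CPM) and srp (100.5 CPM) had the highest medians. Pvr itself was not in the list. The part of hemocyte content in the Pvr and Pvf2 values was not tested.

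Fat body markers (3 genes) summed to 18.7 to 447 CPM at early, 5.98 to 18.04 CPM at intermediate and 7.14 to 23.9 CPM at late passages, with 2 of 2 tested genes lower in both comparisons with early passages. Of all genes, 6.56% were called lower at late and 6.02% at intermediate against early passages. These calls and those of the lists below are from edgeR's quasi-likelihood test with Benjamini-Hochberg adjustment. Fbp1 was at 0 in 13 libraries and Lsp2 in 8. The r of this sum with Pvf3 was -0.55. Glia markers (4 genes) summed to 67.6 to 248 CPM at early, 61.2 to 117 CPM at intermediate and 54.1 to 126 CPM at late passages, with alrm lower in both comparisons, and repo was at 0 in 1 library. Follicle and gonadal soma markers (5 genes) summed to 206 to 591, 158 to 557 and 124 to 240 CPM in the same order, with slbo and tj lower at late and tj lower at intermediate against early passages. The slbo call was lost in 7 of 43 refits. In this list tj was at 0 in 2 libraries and mirr in 1. Muscle precursor markers (5 genes) summed to 176 to 343, 166 to 541 and 225 to 547 CPM with no gene called, and r with Pvf1 was -0.62. Neuron markers (5 genes) summed to 171 to 236, 156 to 202 and 159 to 210 CPM, with VGlut, which was at 0 in 2 libraries, lower in both comparisons. The VGlut calls were lost in 8 of 42 refits at late and 9 of 42 at intermediate against early passages. By median, the neuron, glia and follicle sums were each mainly 1 gene. The median of elav was 178.9 CPM, against 0.325 to 3.16 CPM for nSyb, Syt1, brp and VGlut. That of moody was 83.05 CPM, against 0.669 to 6.30 CPM for repo, alrm and Gs2. For Fas3 it was 191.3 CPM, against 2.37 to 13.8 CPM for tj, slbo, mirr and eya. In R5 passage 19, the library of high Pvf1, the muscle precursor sum was 225 CPM, against 331 and 315 CPM in R5 passages 16 and 17. The part of these cell types in the Pvr, Pvf1 and Pvf3 values was not tested.

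The genes whose log2 levels followed each member most closely over the 32 libraries were named by Pearson's r, as a description of libraries that share cultures. For Pvr they were Prosap (0.87), Mct1 (0.86), Irc (0.84), mrj (0.84) and CG31637 (0.83). For Pvf2 they were Prm (0.89), Rcd2 (0.88), lncRNA:CR42646 (0.88), CG8492 (0.87) and upd2 (0.86), a cytokine ligand of the JAK/STAT pathway. For Pvf3 they were wls (0.86), which carries Wnt ligands to the cell surface, NPFR (0.78), cos (0.77), Marf1 (0.77) and Rai1 (0.76). For Pvf1, whose counts were low, the values were lower: pch2 (0.71), Hip1 (0.71), CG42598 (0.70), Abp1 (0.69) and Atg4a (0.69).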

How the data were processed

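Total RNA, depleted of ribosomal RNA, was sequenced in 32 libraries from 3 lines. The deposited files hold 1 raw count per gene and library, made with TopHat 1.4.1, Bowtie 0.12.8 and bedtools on BDGP5 (dm3), per the submitters' processing notes. The sources used here do not name the counting rule, strand setting or annotation release. Reads from overlapping or antisense genes may therefore have been counted to either. In each file 15253 entries were listed, and the 2 without a gene name (0.0123 to 0.0187% of counts) were dropped. Names, exon lengths and neighbours came from BDGP6.54 (matched by gene ID 9369, locus tag 5002, synonym 95, none 785). The builds differ, so no coordinates are given.

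Genes with at least 1 CPM in at least 3 libraries were tested in edgeR 4.0.16 (R 4.3.3) by the quasi-likelihood test after TMM scaling (factors 0.956 to 1.04), with Benjamini-Hochberg adjustment over 9177 genes and a threshold of 0.05. Stages were compared on counts summed per line and stage (9 sums, line as block, 4 residual degrees of freedom). The same line pairs libraries across stages (correlations of deviations 0.236 to 0.632), and passage number pairs the early libraries (0.114 to 0.729). Lines were compared in a fit of 31 libraries in 9 groups, with 22 residual degrees of freedom. Passage 4, placed in 2 stages by the series text, was taken as early, and R4 passage 12, placed in none, was left out. The scripts were tested on simulated counts. Alternatives were other scalings and filters, DESeq2 1.42.0, other blocks and stages, and leaving out a library, passage or line. Log2 levels for correlations used a prior count of 2. The members and gene lists were chosen with earlier results of these data known. Listed genes were named where called at late against early passages or among the up to 4 called genes of largest change in a list, beside each member's 5 most correlated genes. Counting intervals cover counting error only.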

Additional observations from a re-analysis of the deposited data

Results flagged for a closer look

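Pvf2 in R1 at passage 8 stood at 216.5 CPM, above the 4 other intermediate libraries of R1, which lay at 124 to 140.0 CPM. Its gap to the next value was 0.828 of the range of the group, past Dixon's 95% critical value for 5 samples. Groups of 4 or more libraries were examined in 8 instances, and chance flags about 1 in 20.

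The late against early change of Pvf2 was higher in R5 than in R1 by 0.97 and higher in R5 than in R4 by 1.25 on the log2 scale, each a tested difference between lines (adjusted p = 0.0194 and 0.00493 by edgeR's quasi-likelihood test with Benjamini-Hochberg adjustment). Late libraries lay above the early ones in 3 of 3 R5 passages and below them in 3 of 3 passages of R1 and of R4.

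The late against early change of Pvf1 was higher in R5 than in R4 by 2.09 on the log2 scale, also a tested difference (adjusted p = 0.0308 by the same test). In R5 passage 19 alone of the 3 late libraries lay above the early range, and without it the value was 1.08 and no longer called.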

How the results depend on the processing

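Of 920 refits of the members' values under other settings, 849 kept direction and side of the threshold, 28 lost the call, 21 gained it and 22 changed sign, the sign changes all being of values that were not called. Of 3224 refits that left out 1 library, 3074 kept both, 88 lost the call, 25 gained it and 37 changed sign. Values below are log2 changes unless named otherwise, adjusted p-values are edgeR's with Benjamini-Hochberg adjustment unless DESeq2 is named, and the cause of the changes was not tested.

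Scaling by median of ratios gave -1.10 (adjusted p = 0.0487) for Pvf1 at late against early in R4, the stricter filter -1.11 (adjusted p = 0.0489) and DESeq2 -1.11 (adjusted p = 0.0376). For Pvf2 at late against early in R5, scaling to total counts gave 0.54 (adjusted p = 0.0530), no filter 0.55 (adjusted p = 0.0516) and no passage 2 0.34 (adjusted p = 0.231). The joint adjusted p of Pvf1 was 0.0511 with total counts, 0.0635 with no filter, 0.127 with passage 4 as intermediate and 0.132 without passage 2. With passage 4 as intermediate, Pvr at intermediate against early was -1.15 (adjusted p = 0.0357), Pvf2 0.12 over the lines and 0.036 in R1, and at late against early Pvf3 was 0.091 in R1 and Pvr -0.083 in R4. Without passage 2, Pvf3 was 0.67 (adjusted p = 0.104) at intermediate and -0.18 at late against early, -0.34 at late against early in R4 and 0.79 (adjusted p = 0.0366) for R5 against R4 at late passages, while at intermediate against early Pvr in R4 was 0.075 and Pvf2 in R5 -0.058. DESeq2 called Pvr at intermediate against early, -1.08 (adjusted p = 0.00528).

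The lines pair the libraries, and the main comparison of stages has the line as a block. With no line block Pvf3 at intermediate against early was 1.09 (adjusted p = 0.109), and Pvf2 was 0.054, 0.042 and 0.012 at late against early, intermediate against early and late against intermediate. Passage numbers pair the early libraries, where the passage block changed no call. At late passages they share only a number (correlations -0.0761 to 0.0836), and the block, fitted to the 9 late libraries alone, gave -0.76 (adjusted p = 0.0153) and -0.93 (adjusted p = 0.00614) for Pvr in R5 against R1 and R4, 0.77 (adjusted p = 0.00736) for Pvf3 in R5 against R4 and -0.65 (adjusted p = 0.0296) in R1 against R4. Without line R1, Pvf2 was 0.031, 0.028 and 0.0031 in the 3 comparisons, and Pvf3 at intermediate against early 1.19 (adjusted p = 0.166). Without R4, Pvf2 was 0.15, 0.064 and 0.083, Pvf3 at intermediate against early 0.92 (adjusted p = 0.326) and Pvf1 at late against intermediate 0.51. Without R5, Pvf2, Pvf1 and Pvf3 at late against early were -0.50 (adjusted p = 0.0484), -0.30 and -0.073.

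At passage 4 against passage 2, Pvf2 was 0.52 (adjusted p = 0.154) without passage 3, 0.63 (adjusted p = 0.108) without R1, 0.59 (adjusted p = 0.106) without R4 and 0.35 (adjusted p = 0.128) without R5. Pvr was -1.36 (adjusted p = 0.104) without passage 3, -1.45 (adjusted p = 0.133) without R1 and -1.60 (adjusted p = 0.0542) without R5. Pvf1 was -0.024 with total counts and -0.18 without R1. The settings moved the counts of other receptors and ligands as well: at intermediate against early passages DESeq2 called 7 and 6, against 4 and 2, and without R1 0 and 0.

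Leaving out 1 library at a time moved these values over the following ranges. Pvf1 ran from -0.56 to 0.80 for R5 against R1 at late, -0.26 to 1.11 for R5 against R4 at late, -0.37 to 0.99 for the difference in late against early between R5 and R1, 0.0180 to 0.105 for the joint adjusted p of the difference of late against early, -0.21 to 0.35 for late against early over the lines, -1.31 to -0.96 for late against early in R4, -0.018 to 1.35 for late against early in R5 and -0.45 to 0.063 for late against intermediate over the lines. Pvf2 ran from -0.012 to 0.17 for R1 against R4 at early, -0.090 to 0.043 for intermediate against early over the lines, -0.061 to 0.35 for intermediate against early in R5 and 0.35 to 0.76 for late against early in R5. Pvf3 ran from -0.67 to 0.49 for R1 against R4 at early, 1.26 to 1.60 for R5 against R1 at late, -0.16 to 0.89 for R5 against R4 at early, -1.12 to 0.046 for the difference in late against early between R1 and R4, -0.10 to 0.95 for the difference in late against early between R5 and R4, 0.91 to 1.28 for intermediate against early over the lines, -0.70 to 0.090 for late against early in R1 and -0.35 to 0.71 for late against early in R4. Pvr ran from -0.15 to 0.71 for R5 against R4 at early, -0.58 to 0.0025 for the difference in late against early between R5 and R1, -0.79 to 0.066 for intermediate against early in R4, -0.083 to 0.77 for late against early in R4 and -0.31 to 0.13 for late against intermediate in R1. Leaving out R5 passage 19 gave the low end for Pvf1 at late against early in R5.

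Precision was limited by 3 cultures per stage and 4 residual degrees of freedom, by Pvf1 counts of 16 to 193 reads, and by an unknown counting rule and strand setting. Within a line the fit has no replicate culture.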

Other observations

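R4 passage 12 is named in no stage of the series text and entered no comparison. Its Pvr level, 276 CPM, lay within the R4 late range of 271 to 386 CPM. Its Pvf3 level, 276 CPM, lay between the R4 intermediate libraries, 341 to 477 CPM, and the R4 late ones, 154 to 206 CPM. Pvf2 stood at 108 CPM and Pvf1 at 5.16 CPM, each within the R4 intermediate range.

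The genes that ran most opposite to Pvr over the 32 libraries were pyx (r = -0.78), CG13602 (-0.77) and c(3)G (-0.77). Pvf3 itself had r = -0.68 with Pvr.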
